A study of Mus musculus with 2 samples.

Results

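The genes described here are 10 receptors and ligands through which phagocytes bind and take up apoptotic cells and other cargo: Mfge8, Gas6, Axl, Mertk, Tyro3, Cd163, Mrc1, Lyve1, Stab1 and Msr1. They were chosen by name, through their GENCODE mouse symbols, and make up 10 of the 55487 genes counted. Each symbol matched 1 Ensembl gene. The study sequenced RNA of Langerhans cells, which present antigen in the epidermis. They had been sorted from mouse ears by staining for CD207 and MHC class II. Its single group holds 2 samples of genotype HTR2A-/-, which lack the serotonin 2A receptor. After the sort both were kept for 24 hours with imiquimod, an agonist of Toll-like receptor 7, and with an agent labelled a-CD40L. No sample of another genotype or treatment was analysed here, so every value describes stimulated knockout cells, and a difference between the libraries is a difference between replicates. The labels do not say how many mice gave each sample.

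An apoptotic cell exposes phosphatidylserine on its surface. Bridging proteins such as MFGE8, GAS6 and protein S bind this lipid and link the dying cell to integrins or to the TAM receptor tyrosine kinases TYRO3, AXL and MERTK, which trigger engulfment and dampen cytokine signalling. Scavenger receptors clear other cargo: CD163 takes up haemoglobin bound to haptoglobin, the mannose receptor MRC1 takes up glycoproteins, LYVE1 binds hyaluronan, stabilin 1 (STAB1) takes up modified proteins and dying cells, and MSR1 takes up modified lipoproteins. In skin, AXL is known on Langerhans cells, whereas CD163, MRC1 and LYVE1 are better known from dermal macrophages, and LYVE1 also from lymphatic endothelium.

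The first library (library 1) held 69925160 counts and the second (library 2) 42264685. Between them 80.2% of all genes tested differed beyond counting error, as described below. Cd207, the gene of the sorting marker langerin, had levels of 1125 and 1052 CPM (counts scaled to a common library total, library 1 given first throughout). The targeted gene Htr2a had 77 and 117 counts, which was within background in both libraries, which leaves a partial deletion unchecked. The libraries stood apart in sex-linked genes, with Xist at 3.90 and 1384 CPM and Ddx3y at 149 and 0.0946 CPM, as in a male and a female sample, so they are not repeats of 1 animal. The replicates therefore differ in sex, and the part of sex or of handling in any difference between them cannot be told apart. The 8 keratinocyte markers summed to 4208 and 14254 CPM, and the 10 mature dendritic cell markers to 3175 and 872 CPM.

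Most of these uptake genes were expressed above background, with 1 gene far ahead of the rest. Background was set by the 1135 protein-coding olfactory receptor genes, whose 95th percentile was 0.761 CPM per kb of exon in library 1 and 1.58 CPM per kb in library 2. All 10 genes exceeded this level in library 1 and 9 of 10 in library 2, where Mertk did not. Of all protein-coding genes 56.2% did so in library 1 and 50.4% in library 2, and 47.3% did so in both. Only the Lyve1 value in library 1 lay close above the limit, at 1.29 times its level.

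**Figure D1:**
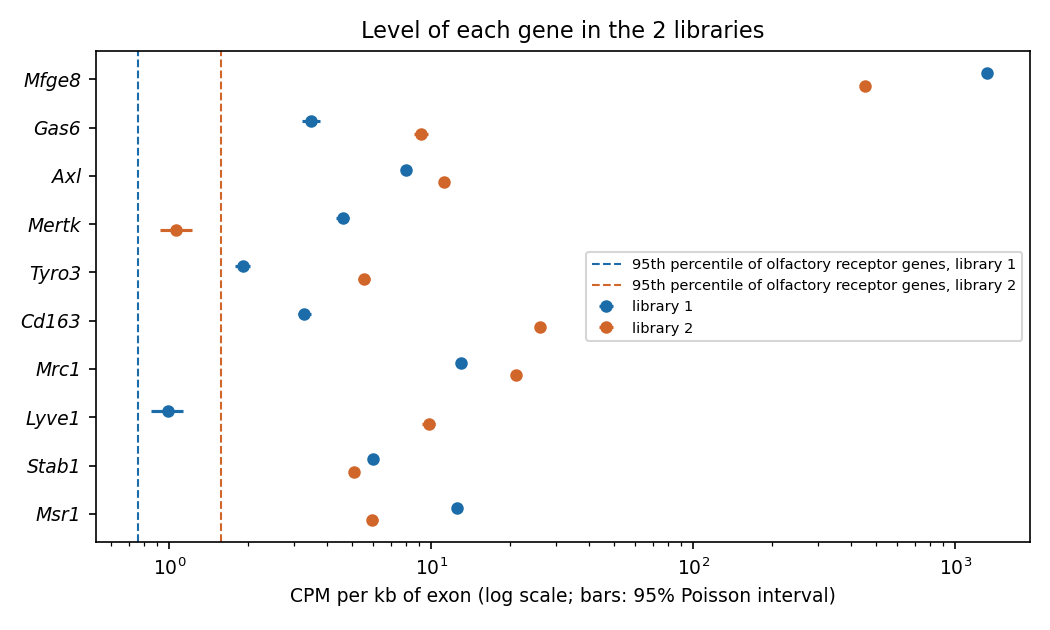
Level of each gene in CPM per kb of exon (log axis) in library 1 (blue) and library 2 (orange). Points are single libraries, bars are 95% Poisson intervals (counting error only) and dashed lines mark the 95th percentile of the olfactory receptor genes. Mfge8 sits far to the right at 1322 and 451 CPM per kb, and the library 2 point of Mertk, at 1.06 CPM per kb, lies left of its line.

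Mfge8, which encodes the bridging protein between phosphatidylserine and αv integrins, was by far the most abundant of the 10. Mfge8 (ENSMUSG00000030605, GRCm38 chromosome 7, 79133768 to 79149060, minus strand) had 433784 and 89514 counts, or 6204 and 2118 CPM. Both libraries were high, but library 1 stood 2.93 times above library 2 by CPM. Per kb of exon Mfge8 ranked 6 among 21974 protein-coding genes in library 1 and 48 in library 2, at 1322 and 451 CPM per kb. Its level per kb was 1.79 times that of Cd207 in library 1 (95% binomial interval 1.77 to 1.80) and 0.653 times in library 2 (0.645 to 0.660), so the order of these genes was reversed between the libraries. The size of this ratio depends on the gene length: with the longest annotated transcript (2330 bp) in place of the union of all Mfge8 exons (4694 bp), it was 3.60 and 1.31, and the reversal was not seen.

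Gas6, the ligand that links phosphatidylserine to TAM receptors, was rare beside Mfge8 and higher in library 2. Gas6 (ENSMUSG00000031451, chromosome 8, 13465374 to 13494490, minus strand) had 621 and 987 counts, or 8.88 and 23.4 CPM (mean 16.1 ± 10.2, SD, n = 2). Per kb, Mfge8 exceeded Gas6 379 times in library 1 (95% binomial interval 350 to 411) and 49.2 times in library 2 (46.2 to 52.5), or 764 and 99.2 times with the longest transcript as gene length. Pros1, which encodes protein S, the other TAM ligand, was at 2.94 and 4.12 CPM per kb, below Gas6 in both libraries on the per kb scale.

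Of the TAM receptors, Axl was the most abundant in both libraries, and the order of Mertk and Tyro3 was reversed between them. Axl (ENSMUSG00000002602, chromosome 7, 25757273 to 25788705, minus strand), a receptor tyrosine kinase that binds GAS6, had 2830 and 2387 counts, or 40.5 and 56.5 CPM. Mertk (ENSMUSG00000014361, chromosome 2, 128698956 to 128802894, plus strand), the TAM receptor best known for engulfment by macrophages, had 1390 and 195 counts, or 19.9 and 4.61 CPM. Tyro3 (ENSMUSG00000027298, chromosome 2, 119797733 to 119818104, plus strand) had 825 and 1455 counts, or 11.8 and 34.4 CPM. Mertk was thus low in library 2, and Tyro3 was lower in library 1 than in library 2. By CPM, library 2 exceeded library 1 1.40 times for Axl, which was near equal only after the scaling described below (log2 ratio -0.02).

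The balance of these receptors within a library does not depend on how the libraries are scaled. Per kb of exon, Axl exceeded Mertk 1.75 times in library 1 (95% binomial interval 1.64 to 1.87) and 10.5 times in library 2 (9.11 to 12.3). Axl exceeded Tyro3 4.22 times in library 1 (3.91 to 4.57) and 2.02 times in library 2 (1.89 to 2.16). The ratio of Mertk to Tyro3 was 2.41 in library 1 (2.21 to 2.63) and 0.192 in library 2 (0.164 to 0.223), a change of 12.6 times between replicates. Since Mertk lay within background in library 2, its ratios there include background counts: olfactory receptor genes had a median of 0.645 CPM per kb, beside 1.06 for Mertk.

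The 3 TAM receptors are paralogs, and their coding sequences were compared to see how much identical sequence they share. The longest identical run between any 2 of them in GENCODE M21 was 14 bases. The runs are shown because reads inside an identical stretch could be counted for either gene. A read longer than 14 bases cannot lie wholly inside one of these runs. The read length is not stated in the labels, and sequence outside the coding part was not compared.
Axl and Mertk: gtgaagaccatgaa
Axl and Tyro3: gatgggccctggag
Mertk and Tyro3: gtgaccatgtggga
The longest run shared by Cd163 and Mrc1 was 12 bases, as was that shared by Mrc1 and Msr1. The exons of Gas6 overlap those of Tmem255b on the opposite strand by 34 bp, and those of Stab1 overlap Nt5dc2 by 112 bp. Tmem255b had 34 and 54 counts in all and Nt5dc2 1136 and 1271, and no source read for this work says whether counting used strand. A part of the Gas6 and Stab1 counts may therefore belong to these neighbours.

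**Figure D2:**
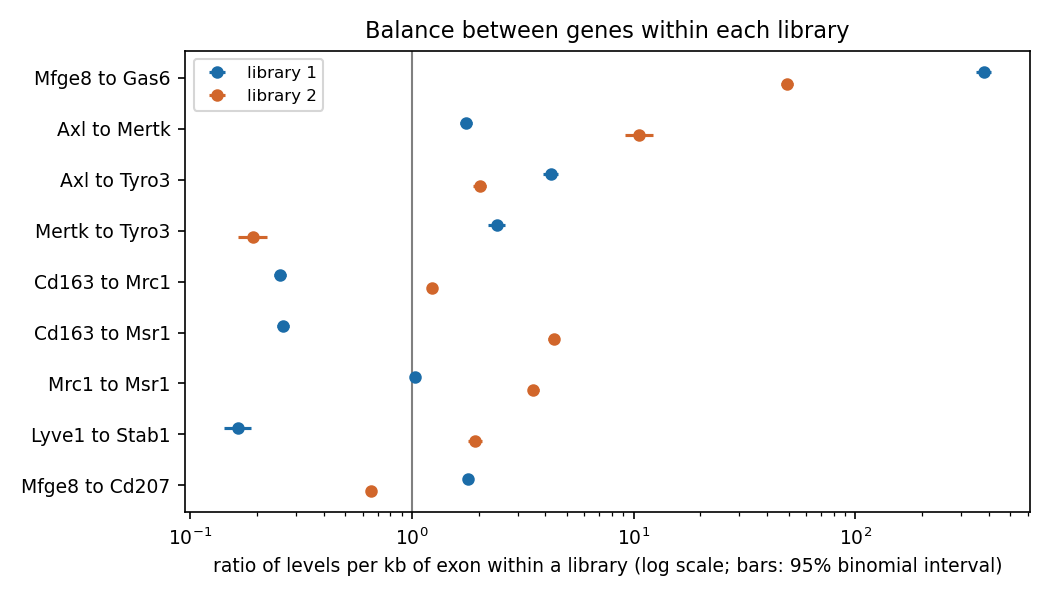
Ratio of the levels per kb of exon of 2 genes within the same library (log axis), in library 1 (blue) and library 2 (orange), with 95% binomial intervals. The pairs Mertk to Tyro3, Cd163 to Mrc1, Cd163 to Msr1, Lyve1 to Stab1 and Mfge8 to Cd207 lie on opposite sides of 1 in the 2 libraries.

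Among the scavenger receptors, Mrc1 was high in both libraries, whereas Cd163 and Lyve1 were several times higher in library 2. Mrc1 (ENSMUSG00000026712, chromosome 2, 14229392 to 14332057, plus strand), the macrophage mannose receptor, had 5760 and 5665 counts, or 82.4 and 134 CPM (mean 108 ± 36.5, SD, n = 2). Cd163 (ENSMUSG00000008845, chromosome 6, 124304656 to 124330527, plus strand), the haemoglobin scavenger receptor, had 1252 and 5991 counts, or 17.9 and 142 CPM. Lyve1 (ENSMUSG00000030787, chromosome 7, 110850607 to 110863239, minus strand), the hyaluronan receptor, had 201 and 1205 counts, or 2.87 CPM (95% Poisson interval 2.49 to 3.30) and 28.5 CPM (26.9 to 30.2). By CPM, library 2 exceeded library 1 7.92 times for Cd163 and 9.92 times for Lyve1, against 1.63 times for Mrc1.

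Msr1 and Stab1 did not share this pattern. Msr1 (ENSMUSG00000025044, chromosome 8, 39581685 to 39642673, minus strand), the class A scavenger receptor, had 5538 and 1599 counts, or 79.2 and 37.8 CPM. Stab1 (ENSMUSG00000042286, chromosome 14, 31139013 to 31168641, minus strand), which encodes stabilin 1, had 4325 and 2204 counts, or 61.9 and 52.1 CPM (mean 57.0 ± 6.86, SD, n = 2). Msr1 was lower in library 2 than in library 1, though above background in both, while the Stab1 values lay closest together of the 10 genes by CPM.

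The scavenger receptors therefore ranked differently in each library. Per kb, Cd163 was at 0.263 times the level of Msr1 in library 1 (95% binomial interval 0.247 to 0.279) and at 4.35 times in library 2 (4.12 to 4.60), a 16.6-fold change of the ratio. Against Mrc1 it was at 0.254 times in library 1 (0.238 to 0.270) and 1.23 times in library 2 (1.19 to 1.28). Lyve1 was at 0.164 times the level of Stab1 in library 1 and at 1.93 times in library 2 (1.80 to 2.07).

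Over all 10 genes, the order by CPM per kb in library 1 was Mfge8 (1322), Mrc1 (12.9), Msr1 (12.5), Axl (8.04), Stab1 (6.01), Mertk (4.58), Gas6 (3.49), Cd163 (3.28), Tyro3 (1.90) and Lyve1 (0.985). In library 2 it was Mfge8 (451), Cd163 (26.0), Mrc1 (21.04), Axl (11.2), Lyve1 (9.77), Gas6 (9.17), Msr1 (5.96), Tyro3 (5.55), Stab1 (5.07) and Mertk (1.06). Mfge8 led and Axl held place 4 in both. The neighbours Mrc1 and Msr1 (ratio 1.04, 95% binomial interval 0.998 to 1.07) and Gas6 and Cd163 (1.06, 0.964 to 1.17) could not be told apart by counting error in library 1, and with the longest transcript as length Mrc1 was at 0.704 times Msr1 there. The same held for Lyve1 and Gas6 (1.07, 0.979 to 1.16) and for Msr1 and Tyro3 (1.07, 0.9995 to 1.15) in library 2. In the order of the means over both libraries, every gap between neighbours after Mfge8 was smaller than the larger of their SDs. Genes further apart in that order can differ by more, such as Mrc1 (17.0 ± 5.73 CPM per kb, SD, n = 2) and Mertk (2.82 ± 2.49 CPM per kb).

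The libraries were then compared with each other over all genes, to see how far replicates differ. Counts were scaled by the trimmed mean of M values (TMM), and log2 ratios are library 2 over library 1. Of the 10 genes 9 differed beyond counting error (exact binomial test of edgeR, p-values adjusted by Benjamini and Hochberg over 30373 genes), but so did 80.2% of all genes tested, so this count says little about uptake genes. Of these 9, 5 were higher in library 2 (44.2% of all genes tested were) and 4 lower (36.1% of all). Axl alone was not called, with a log2 ratio of -0.02 (95% interval -0.10 to 0.06, adjusted p = 0.65 by the same exact test). Its ratio was 0.48 with total counts and -0.12 with DESeq2 size factors, so the direction for Axl rests on the scaling. The test compares these libraries and not conditions, and in bulk RNA fewer cells of a type and less RNA per cell cannot be told apart.

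By size, 3 genes were higher in library 2 by 2-fold or more (24.5% of all genes tested were) and 3 were lower by as much (12.6% of all). Lyve1 had a log2 ratio of 2.80 (95% binomial interval 2.59 to 3.03), Cd163 of 2.48 (2.40 to 2.57) and Tyro3 of 1.04 (0.92 to 1.17). Mertk had -2.60 (-2.83 to -2.39) and -3.88 with the median olfactory receptor level subtracted. Mfge8 had -2.05 (-2.06 to -2.04) and Msr1 -1.57 (-1.65 to -1.49). With DESeq2 size factors 5 genes passed 2-fold, without Tyro3 (0.94), and with total counts 7 did, with Gas6 (1.39). The remaining genes lay between, Gas6 at 0.89, Mrc1 at 0.20 and Stab1 at -0.75. The same 6 genes that passed 2-fold, namely Lyve1, Cd163, Tyro3, Mertk, Mfge8 and Msr1, were called when edgeR's exact test allowed a dispersion of 0.04, which called 33.6% of all genes. Dispersion is the square of the biological coefficient of variation, estimated at 0.635 from these libraries, so 0.04 understates their spread. Size and call come from the same values, so their agreement is no independent support. The median over the 10 genes was 0.09, beside 0.15 over all genes tested and -0.33 over the 14042 of them above background in both libraries, while single genes ran from -2.60 to 2.80.

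**Figure D3:**
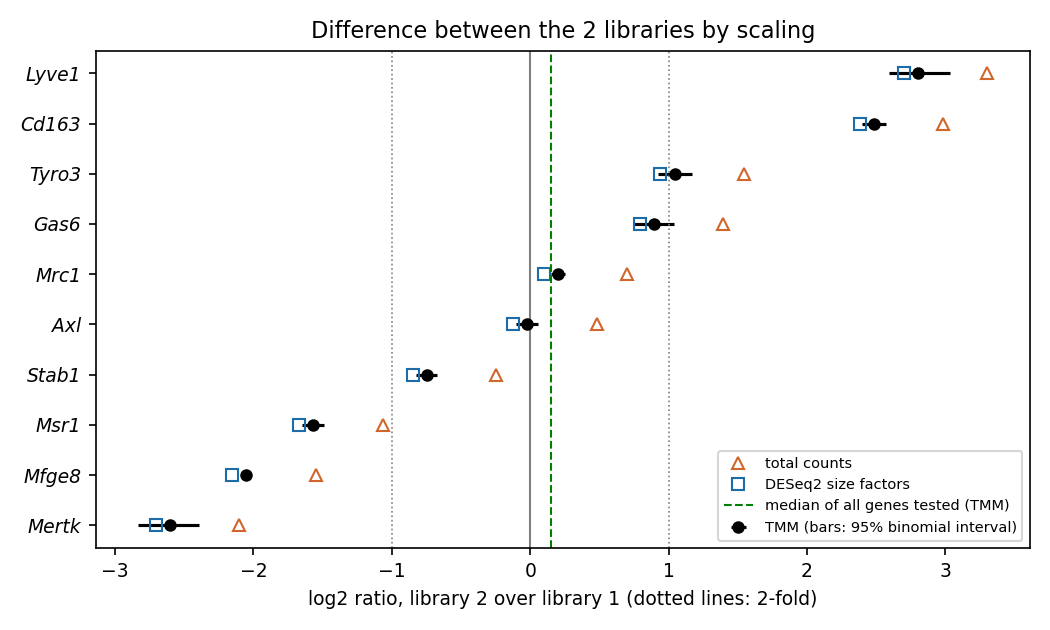
Log2 ratio of library 2 over library 1 for each gene with TMM scaling (black, bars are 95% binomial intervals), total counts (triangles) and DESeq2 size factors (squares). Dotted lines mark 2-fold and the dashed line the median of all genes tested (0.15). The genes run from Lyve1 at 2.80 to Mertk at -2.60, and Axl alone changes sign with the scaling.

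Sequences before the transcription start are shown for the genes at both ends of this range. RefSeq starts on GRCm38.p6 were found for 8 of the 10 genes, and of these Mertk and Mfge8 had the lowest ratios and Cd163 and Tyro3 the highest. Each sequence is the 250 bases before the start, 5′ to 3′ on the gene's strand. Capitals mark matches, on either strand, to the 6 motifs searched. The general promoter motifs were the GC box, spelled GGGCGG, the TATA box, spelled TATAAA, and the box spelled CCAAT. Sites of named factors were the AP-1 site, spelled TGANTCA, a core of PU.1 sites, spelled GAGGAA, and the core of aryl hydrocarbon receptor sites, spelled GCGTG. None of these motifs contains another.
Mertk, chr2:128698665-128698914, plus strand: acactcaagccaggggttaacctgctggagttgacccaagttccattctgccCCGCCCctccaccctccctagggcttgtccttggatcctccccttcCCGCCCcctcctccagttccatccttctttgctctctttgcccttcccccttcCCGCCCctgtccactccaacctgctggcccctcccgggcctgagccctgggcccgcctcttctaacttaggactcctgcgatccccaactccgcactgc
Mfge8, chr7:79149061-79149310, minus strand: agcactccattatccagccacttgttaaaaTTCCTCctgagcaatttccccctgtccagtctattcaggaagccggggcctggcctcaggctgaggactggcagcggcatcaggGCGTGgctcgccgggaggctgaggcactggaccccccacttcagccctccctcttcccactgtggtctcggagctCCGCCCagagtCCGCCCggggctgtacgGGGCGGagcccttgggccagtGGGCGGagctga
Cd163, chr6:124304401-124304650, plus strand: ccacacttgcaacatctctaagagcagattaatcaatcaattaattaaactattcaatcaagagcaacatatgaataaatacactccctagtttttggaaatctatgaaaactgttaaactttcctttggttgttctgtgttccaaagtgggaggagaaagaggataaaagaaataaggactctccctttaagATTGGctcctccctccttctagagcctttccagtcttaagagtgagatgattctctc
Tyro3, chr2:119799264-119799513, plus strand: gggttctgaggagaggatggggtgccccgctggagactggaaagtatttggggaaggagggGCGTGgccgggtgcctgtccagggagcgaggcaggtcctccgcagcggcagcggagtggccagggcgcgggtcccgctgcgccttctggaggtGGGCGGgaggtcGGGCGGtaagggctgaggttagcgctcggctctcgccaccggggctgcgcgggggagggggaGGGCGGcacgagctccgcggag
The Cd163 sequence differed from the others in base composition, with 36.8% G and C and 0 CpG, against 63.6% and 7 CpG for Mertk, 65.2% and 12 CpG for Mfge8 and 73.2% and 24 CpG for Tyro3. GGGCGG occurred 4 times before Mfge8 and 3 times each before Mertk and Tyro3, and 32.7% of 32851 promoters hold it. CCAAT was found before Cd163 only among these 4 genes (33.9% of all promoters), and GAGGAA before Mfge8 only (23.2%). GCGTG occurred before Mfge8 and Tyro3, as in 28.2% of promoters. Neither TATAAA (12.4%) nor TGANTCA (6.75%) was found before any of the 4. Tyro3 has its RefSeq start inside the GENCODE gene, downstream of the gene's first base.

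Genes that act with these receptors were examined through lists. All 9 of the other bridging molecules and opsonins exceeded background in each library, as did 47.3% of all protein-coding genes. Of these, 2 were called higher in library 2 and 6 lower, where 44.2% and 36.1% of all genes tested were. Thbs1, which encodes thrombospondin 1, a bridge to CD36 and αv integrins, was the most abundant at 1010 and 2426 CPM. Anxa1, a lipid-binding protein of apoptotic cells, was at 303 and 743 CPM, and Calr, the calreticulin gene, at 487 and 592 CPM. The complement gene C1qa was at 149 and 80.9 CPM, C1qb at 157 and 89.9 CPM and C1qc at 128 and 75.2 CPM. The log2 ratios of the C1q genes were close together (-1.38, -1.30 and -1.27), as was that of C3 (-1.33), opposite in sign to those of Thbs1 (0.76) and Anxa1 (0.79).

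Other receptors for apoptotic cells were above background in both libraries in 8 of 15 cases, near the 47.3% of all protein-coding genes, with 3 called higher in library 2 (44.2% of all genes tested) and 8 lower (36.1%). Havcr2, which encodes TIM-3, was at 314 and 168 CPM (log2 ratio -1.40), and Lrp1, a receptor for calreticulin-coated cells, at 499 and 250 CPM (-1.50). Itgav, the αv integrin chain that MFGE8 binds, was at 122 and 125 CPM, with a log2 ratio of -0.46 by TMM and 0.04 with total counts. The 2 β chains of the list, named here after their values were seen, went different ways. Itgb5 was at 63.3 and 11.2 CPM (log2 ratio -3.00). Itgb3 was at 5.35 and 7.24 CPM (-0.06), was not called and was within background in library 2. The libraries with more and with less Mfge8 thus had nearly equal Itgav by CPM, unequal Itgb5 and no called difference in Itgb3.

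Of the engulfment machinery 13 of 14 genes exceeded background in each library, beside 47.3% of all protein-coding genes that did so in both. Of the 14, 4 were called higher in library 2 (44.2% of all genes tested) and 10 lower (36.1%). Rac1, the GTPase that drives the phagocytic cup, was at 321 and 205 CPM, Elmo1, part of the complex that activates it, at 185 and 63.6 CPM, and Dock2, its exchange factor in blood cells, at 328 and 103 CPM. Abca1, a lipid exporter induced during uptake, was at 252 and 128 CPM. All 4 were at least 2-fold lower in library 2 by TMM (log2 ratios -1.15, -2.05, -2.17 and -1.47 in this order).

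Of the other scavenger receptors 9 of 15 were above background in both libraries (47.3% of protein-coding genes), with 7 called higher and 8 lower, where 44.2% and 36.1% of all genes tested were. The most abundant by the mean level per kb were Cxcl16, a chemokine and receptor for oxidised lipoprotein (729 and 524 CPM), Cd14 (231 and 87.9 CPM) and Cd68 (102 and 79.8 CPM). Ly75, the endocytic receptor DEC-205, was at 623 and 218 CPM (log2 ratio -2.01), and Scarb2 at 101 and 56.3 CPM (-1.34). In the short list of receptor shedding and the phagocytosis checkpoint, 5 of 5 genes exceeded background in each library (47.3% of protein-coding genes did in both). Of the 5, 1 was called higher in library 2 (44.2% of all genes tested) and 4 lower (36.1%). These include Adam10 (81.4 and 34.7 CPM) and Adam17 (105 and 85.3 CPM), proteases that shed TAM receptors, Sirpa (216 and 61.4 CPM) and its ligand Cd47 (166 and 70.3 CPM).

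Transcription factor genes linked to uptake were called lower in library 2 in 10 of 10 cases (36.1% of all genes tested were), with a median log2 ratio of -1.40 and 7 at least 2-fold lower (12.6% of all). These 10 were above background in both libraries, but only 14042 of the 30373 genes tested were. Shares of all genes tested are therefore not like for like here or for other lists of mostly expressed genes, and the shares among expressed genes are not given. Spi1, which encodes PU.1, was at 172 and 56.5 CPM, Ahr, the aryl hydrocarbon receptor, at 191 and 103 CPM, and Klf4 at 273 and 260 CPM. Maf, a factor of tissue macrophages, was at 77.1 and 41.3 CPM (log2 ratio -1.40), while Cd163, Lyve1 and Mrc1 had positive log2 ratios. The medians of the other pathway lists were -0.82 for bridging molecules, -0.46 for apoptotic cell receptors, -0.80 for engulfment, -0.85 for scavenger receptors and -1.73 for shedding and checkpoint, beside 0.15 over all genes tested and -0.33 over those above background in both libraries. The median of the apoptotic cell receptors thus lay near that of expressed genes.

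**Figure D4:**
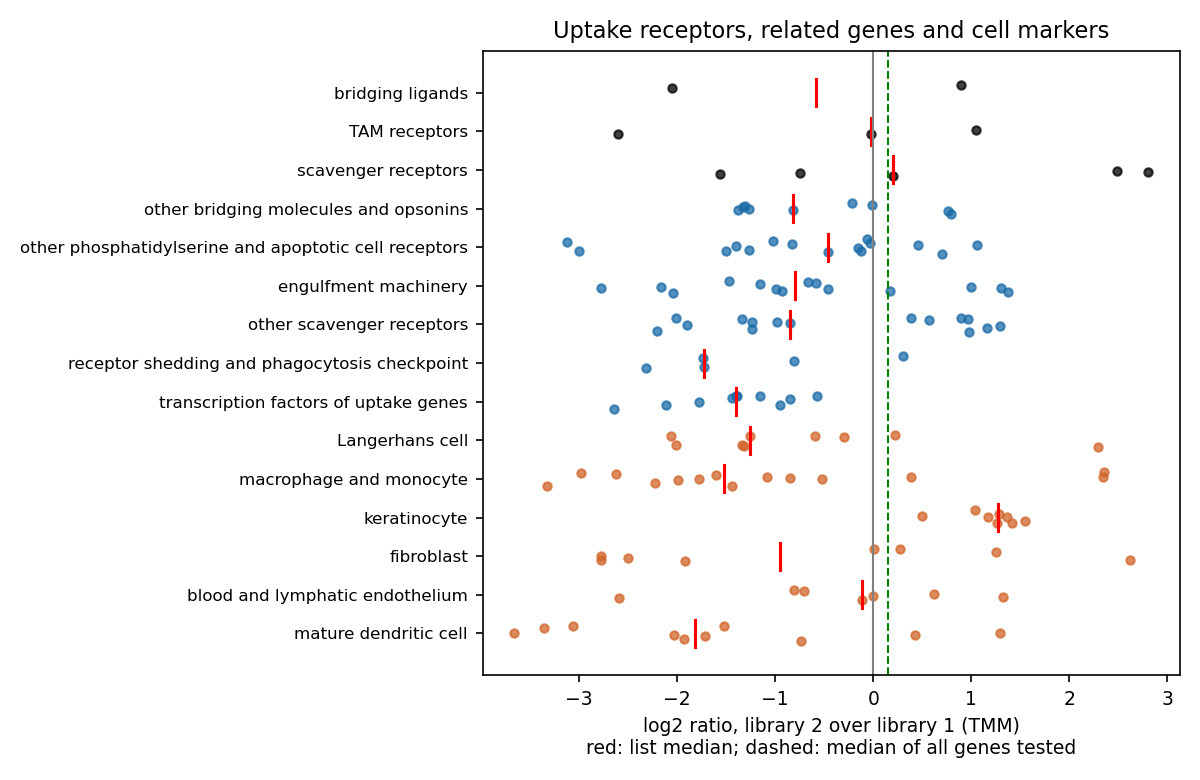
Log2 ratio of library 2 over library 1 (TMM) for every tested gene of each list, with the uptake genes in black, related pathway genes in blue and cell markers in orange. Red bars are list medians and the dashed line is the median of all genes tested (0.15). The 10 transcription factors all lie left of 0 and the 8 keratinocyte markers all lie right of it, while the uptake genes lie on both sides.

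The scavenger receptors are also genes of other skin cells, so markers of these cells are given beside them. Of 14 macrophage and monocyte markers 11 were above background in both libraries (47.3% of all protein-coding genes were) and none was at 0. Their summed level was 2407 CPM in library 1 and 1223 CPM in library 2. Of the 14, 11 were called lower in library 2 (36.1% of all genes tested were). Among them were Csf1r, the receptor that macrophages and Langerhans cells need for survival (738 and 263 CPM, log2 ratio -1.99), and Itgam (526 and 160 CPM, -2.22). Lyz2, which encodes lysozyme, was at 239 and 235 CPM, with a log2 ratio of -0.52 by TMM and -0.02 with total counts.

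The 3 macrophage markers called higher in library 2 (44.2% of all genes tested were), named because so few were, are Folr2, Cbr2 and F13a1. Folr2, a folate receptor known from resident macrophages, was at 0.712 and 5.17 CPM per kb (log2 ratio 2.34) and within background in library 1. Cbr2 was at 4.58 and 33.1 CPM (log2 ratio 2.35), and F13a1, which encodes coagulation factor XIII A, at 89.1 and 164 CPM (0.38). Their direction was that of Cd163, Lyve1 and Mrc1 and opposite to that of Csf1r, Mertk and Msr1. Per kb, Cd163 was at 0.0256 times the level of Csf1r in library 1 (95% binomial interval 0.0242 to 0.0271) and at 0.570 times in library 2 (0.552 to 0.588), whereas Mertk was at 0.0359 and 0.0233 times. The part of dermal macrophages in the levels of Cd163, Lyve1 and Mrc1 was not tested.

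Markers of endothelium, where LYVE1 and stabilin 1 are also found, were low in summed level. Of 8 blood and lymphatic endothelial markers 1 was above background in both libraries (47.3% of all protein-coding genes were), Pecam1 at 52.1 and 12.2 CPM, which myeloid cells express too. Taken singly, library 1 had 4 of 8 above background (56.2% of all protein-coding genes) and library 2 had 1 of 8 (50.4%). The list summed to 82.7 CPM in library 1 and 53.7 CPM in library 2, with no marker at 0. Prox1, the defining factor of lymphatic endothelium, was at 6.55 and 9.27 CPM, or 0.781 and 1.11 CPM per kb, within background in library 2. Flt4, another lymphatic gene of the list, was within background in both libraries at 0.413 and 1.46 CPM per kb. It was called higher in library 2 (log2 ratio 1.32), the direction of Lyve1, whereas Prox1 was not called (0.001). The background level was also higher in library 2, with an olfactory receptor median of 0.221 and 0.645 CPM per kb. Of the 7 markers tested, 2 were called higher in library 2 (44.2% of all genes tested) and 3 lower (36.1%). Those lower were Pecam1 (-2.59), Kdr (-0.81, at 10.6 and 8.52 CPM) and Cdh5 (-0.71). The part of lymphatic endothelium in the Lyve1 level was not tested. Fibroblast markers summed to 120 and 63.6 CPM with none at 0. Above background were 5 of 8 in library 1 (56.2% of all protein-coding genes) and 1 of 8 in library 2 (50.4%). They went in both directions, with Col1a1 at 35.6 and 8.85 CPM and Fbln1 at 1.47 and 12.9 CPM.

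Keratinocyte markers moved with Gas6, Tyro3, Cd163, Mrc1 and Lyve1, and most Langerhans cell markers with Mfge8, Mertk, Msr1 and Stab1. All 8 keratinocyte markers were above background in both libraries (47.3% of all protein-coding genes were). All were called higher in library 2 (44.2% of all genes tested were), with a median log2 ratio of 1.27, led by Krt14 at 1315 and 4806 CPM. The 9 Langerhans cell markers summed to 15451 and 10179 CPM, with 7 called lower in library 2 (36.1% of all genes tested were). Their median was -1.26, and Cd74 (7188 and 4067 CPM) was among those lower. Cd207 itself had a log2 ratio of -0.60 by TMM, smaller in size than that of Mfge8. The mature dendritic cell markers had a median of -1.82, led by Ccl22 at 828 and 92.6 CPM, with 8 of 10 called lower (36.1% of all genes tested). The part of these cell markers in the differences between the libraries was not tested.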

How the data were processed

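RNA was sequenced from 2 samples of sorted Langerhans cells of 1 group. The authors deposited raw whole-number counts for each Ensembl gene. Per the submitters' processing notes, Trimmomatic, HISAT2, SAMtools and StringTie were used on GRCm38. Their versions, the annotation release, strand use and the unit counted, read or read pair, were not given in the sources used here. The column with replicate number 2 is library 2, and the other column, which carries no number, is library 1. The closing row of column totals, which names no gene, was not used.

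Symbols, positions and exon lengths came from GENCODE M21 for 55227 of 55487 rows. CPM are counts over the library total. Intervals are exact 95% Poisson or binomial (Clopper-Pearson) and cover counting error only, taking counts as independent. The limit that 0 counts allows (3 counts) is 0.0429 CPM for library 1 and 0.0710 CPM for library 2. Genes reaching 1 CPM in either library entered the fit, with TMM scaling. The between-library test was the exact binomial test (edgeR 4.0.16, R 4.3.3; Benjamini-Hochberg threshold 0.05), which uses a chi-square approximation for large counts. Log2 ratios carry a prior count of 1. TMM lowers a log2 ratio by 0.50 against total counts. No quasi-likelihood test was possible, as 2 samples of 1 group compared with each other leave no residual degrees of freedom. On simulated data for library 2 against library 1 (27365 genes, sampling noise alone) the test found 95 of 100 genes with a 2-fold change and 35 of 100 with a 1.2-fold change.

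The genes and lists were chosen with earlier results of these data known. From each pathway list the text names the 3 highest genes per kb above background and those at least 2-fold apart with a mean of at least 50 CPM, and from each marker list the 3 highest by CPM. Some genes, such as Ly75 and Cd68, sit in 2 lists. Not all of these are printed, and other names (Pros1, Itgb5, Itgb3, Folr2, Cbr2, F13a1, Flt4, Fbln1, Cd207) were added after their values were seen. A planned comparison of protein sequences was not run. Alternatives were DESeq2 1.42.0 size factors, total counts, other count filters, a prior count of 5, a dispersion of 0.04, subtraction of the median olfactory receptor level, other background limits, other gene lengths and each library alone.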

Additional observations from a re-analysis of the deposited data

How the results depend on the processing

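Directions and calls of the uptake genes mostly held under the alternatives run, with these exceptions. No paired analysis was possible because the 2 samples form 1 group. The number of these genes higher in library 2 by the binomial test was 3 with a dispersion of 0.04, against 5. Their median log2 ratio was -0.012 with DESeq2 size factors, and Axl had 0.48 with total counts and was called at -0.12 with DESeq2 size factors. No other uptake gene changed sign or call with these scalings, the other count filters or the other prior count, but with a dispersion of 0.04 Gas6, Mrc1 and Stab1 were no longer called. The number of uptake genes at least 2-fold apart was 6 with TMM, 5 with DESeq2 size factors and 7 on total counts. Of all calls, 55.1% were higher in library 2 with TMM and 75.9% with total counts, and 5 of 9 and 6 of 10 of the calls among uptake genes. Over all genes the median log2 ratio was 0.65 with total counts against 0.15. With the longest transcript as gene length, the library 1 ratio per kb was 764 for Mfge8 to Gas6 (99.2 in library 2) and 3.60 for Mfge8 to Cd207. With total counts, 4 bridging molecules, 6 apoptotic cell receptors and 4 endothelial markers were called higher in library 2. With TMM these were 2 of 9, 3 of 15 and 2 of 7 tested. Of all 30373 genes tested, 19632 were called higher with total counts, against 13417 with TMM. The medians of the apoptotic cell receptors and endothelial markers turned to 0.044 and 0.39 from -0.46 and -0.11. With each library by itself, 9 to 10 uptake genes were above background. Leaving out a library gives no ratio between libraries. Counting error limited little, but with 2 replicates the spread itself is poorly known: the biological coefficient of variation was 0.635.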
